A study of Homo sapiens with 9 samples.

Results

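Complex I of the respiratory chain, the NADH:ubiquinone oxidoreductase, is described here through the RNA of its nuclear genes in 9 libraries of human cells labelled as a neuroblastoma line. Members were taken as all genes of the expression table whose symbol begins with NDUFA, NDUFB, NDUFC, NDUFS or NDUFV, pseudogenes left out. Of 22290 genes, 44 met this rule: 32 subunits of complex I, 8 NDUFAF assembly factors, NDUFA4 with its paralogue NDUFA4L2, and 2 transcripts listed apart (the read-through NDUFC2-KCTD14 and the divergent transcript NDUFA6-DT). Another 5 matching entries were pseudogenes. NDUFV2, NDUFA7, NDUFA9, NDUFC2 and NDUFB8 were not analysed here.

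The study set cells with altered TRAP-1, the mitochondrial chaperone of the HSP90 family, against their parental cells by RNA sequencing. The cell line is labelled IMR-32, an established line from a human neuroblastoma, with brain as its tissue. There were 3 libraries of parental cells (genotype WT), 3 of cells with the genotype TRAP-1 knockdown (KD) and 3 of cells with the genotype TRAP-1 overexpression (OE), the engineered groups being lines made from the same parental cells. How many clones or separate cultures lie behind the 3 libraries of a group is not given in the sources used here, so p-values measure only the spread between these libraries, which may be technical.

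All values are regularized log2 values (rlog), which the authors scaled for library size and shrank toward the mean of each gene. A difference of 1 would be a doubling before shrinkage, and the differences printed here understate the change, more so for genes of low level. The depth of the libraries is unknown from such values. Differences between group means were tested with limma over all 22290 genes and called at a Benjamini-Hochberg adjusted p under 0.05. The comparisons of KD and of OE with parental use the same parental libraries.

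Complex I takes electrons from NADH and passes them through flavin and iron-sulfur clusters to ubiquinone, while its membrane arm pumps protons out of the matrix. Its matrix arm consists of the N module, which oxidizes NADH, and the Q module, which reduces ubiquinone, and its membrane arm has a proximal and a distal part. Subunits come from both the nuclear and the mitochondrial genome, and a set of assembly factors, which are absent from the finished enzyme, joins the modules in steps.

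TRAP1 (ENSG00000126602, chromosome 16 of GRCh38 from 3651639 to 3717553, minus strand) had rlog values of 10.67, 10.66 and 10.65 in the parental libraries, 10.79, 10.79 and 10.83 in those labelled KD and 10.67, 10.63 and 10.74 in those labelled OE. The libraries labelled KD lay above all parental libraries, and those labelled OE overlapped them. The difference from parental was 0.14 for KD (standard error 0.025, adjusted p = 1.8e-05 from limma) and 0.02 for OE (adjusted p = 0.64 from limma). Only after removal of the median of the neighbouring genes, itself -0.043 in OE, was TRAP1 called in OE, at a difference of 0.06 (adjusted p = 0.049 from limma). TRAP1 RNA therefore went against the label of the KD libraries, and of the bases of its canonical transcript 39.0% are shared with other annotated genes. In what follows KD and OE name the labels of the libraries and not a measured loss or gain of TRAP1.

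Markers of the labelled cell type were also looked at, by rlog values that are not corrected for length and so give no order between genes. Of 14 adrenergic neuroblastoma markers, 10 had values, 5 of these had a mean rlog under 5, and none had a mean of 10 or more. ISL1 had a mean of 9.29, and PHOX2A (1.34), TH (2.73) and MYCN (2.54) were near the floor of the table, whose lowest value was 0.138. The other 4 were not analysed here. Of 8 mesenchymal-type markers, 7 had a mean of 10 or more, VIM (15.89) among them. Of the 5 epithelial markers with values KRT18 had a mean of 12.04 and EPCAM (2.58) was near the floor. Of the 4 neuronal markers with values 2 had a mean under 5, SLC17A7 (3.11) among them, and SYT1 had a mean of 7.60. Of the 2 glial markers with values 1 had a mean under 5, MBP (4.52), and GFAP had one of 5.80.

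MYCN, PHOX2A and TH were thus near the floor in the cells labelled IMR-32, a line known for amplified MYCN, and the text calls the cells by that label only. Markers also differed between groups, where 26.9% of all genes were called in each direction in KD and 16.9% higher and 18.0% lower in OE. Of the mesenchymal-type markers 4 of 8 were higher and 3 lower in KD, and 5 were higher and 2 lower in OE. Among them PRRX1 differed by 1.29 in KD and 0.69 in OE, FN1 by -0.96 and 0.55, and FOSL1 by -0.72 and -0.52. Of the 10 adrenergic ones 2 were higher and 5 lower in KD, and 2 were lower in OE. Of the neuronal ones SYT1 (0.26, adjusted p = 2.8e-06) and GAD1 (0.31, adjusted p = 1.5e-07) were higher in KD and RBFOX3 (-0.12, adjusted p = 0.038, from limma for all 3) lower. The glial marker MBP was lower in KD (-0.23, adjusted p = 3.6e-05 from limma). Of the epithelial ones KRT8 was higher in KD (0.39, adjusted p = 7.1e-12 from limma) and in OE (0.40, adjusted p = 1e-11 from limma), while CLDN4 (-0.57, adjusted p = 3.8e-16) and KRT18 (-0.10, adjusted p = 5.1e-05 from limma for both) were lower in OE. Their part in the results below was not tested.

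Levels of different members can be compared only per length. Per kilobase of the canonical transcript, the subunits had a median parental level of 11.42 on the log2 scale, from 3.48 for NDUFA11 to 13.20 for NDUFS5, and the NDUFAF factors had a median of 9.68, from 6.95 for NDUFAF5 to 11.55 for NDUFAF8. NDUFA11, the 1 subunit with a mean rlog under 5, and NDUFA13 (7.33 per kilobase) stood below most other subunits. Other annotated genes share 68.2% of the bases of the canonical NDUFA11 transcript, 83.9% of NDUFA13 and 51.3% of NDUFS7. How reads were assigned where genes overlap is not given in the sources used here, so the values of these 3 subunits are uncertain.

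The NDUFAF factors and the subunits differed in how they moved. All 8 NDUFAF factors were lower in the libraries labelled KD than in parental, where 26.9% of all genes were called lower, with differences from -0.34 to -0.08 and a median of -0.27, against a median of -0.00051 over all genes. None was called higher in limma, beside 26.9% of all genes called so. At an unadjusted p under 0.05 also 0 of the factors were higher. Against parental, the libraries labelled OE had 4 of the 8 called lower, beside 18.0% of all genes, and 0 called higher, beside 16.9% of all genes. At an unadjusted p under 0.05 in limma 0 factors were higher in OE. The median difference of the factors was -0.093 in OE.

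The 32 subunits were split in KD, with 9 called higher (28.1%) and 8 lower (25.0%), beside 26.9% of all genes each way, and a median of -0.0041. In OE 11 subunits were called higher (34.4%, beside 16.9% of all genes) and 3 lower (9.38%, beside 18.0%), with a median of 0.021. That median was 0.003 after median-centring, and 1 subunit was called lower in OE once neighbours' medians were removed. All subunits but 1 had a mean rlog of 5 or more, as had 14000 of the 22290 genes. When only those 14000 were tested, 5050 were higher and 5139 lower in KD and 3500 higher in OE. These are larger shares than over all genes. In that setting 9 subunits were higher and 9 lower in KD, and 12 higher and 4 lower in OE. The plot of differences from parental sets subunits and factors side by side.

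**Figure D1:**
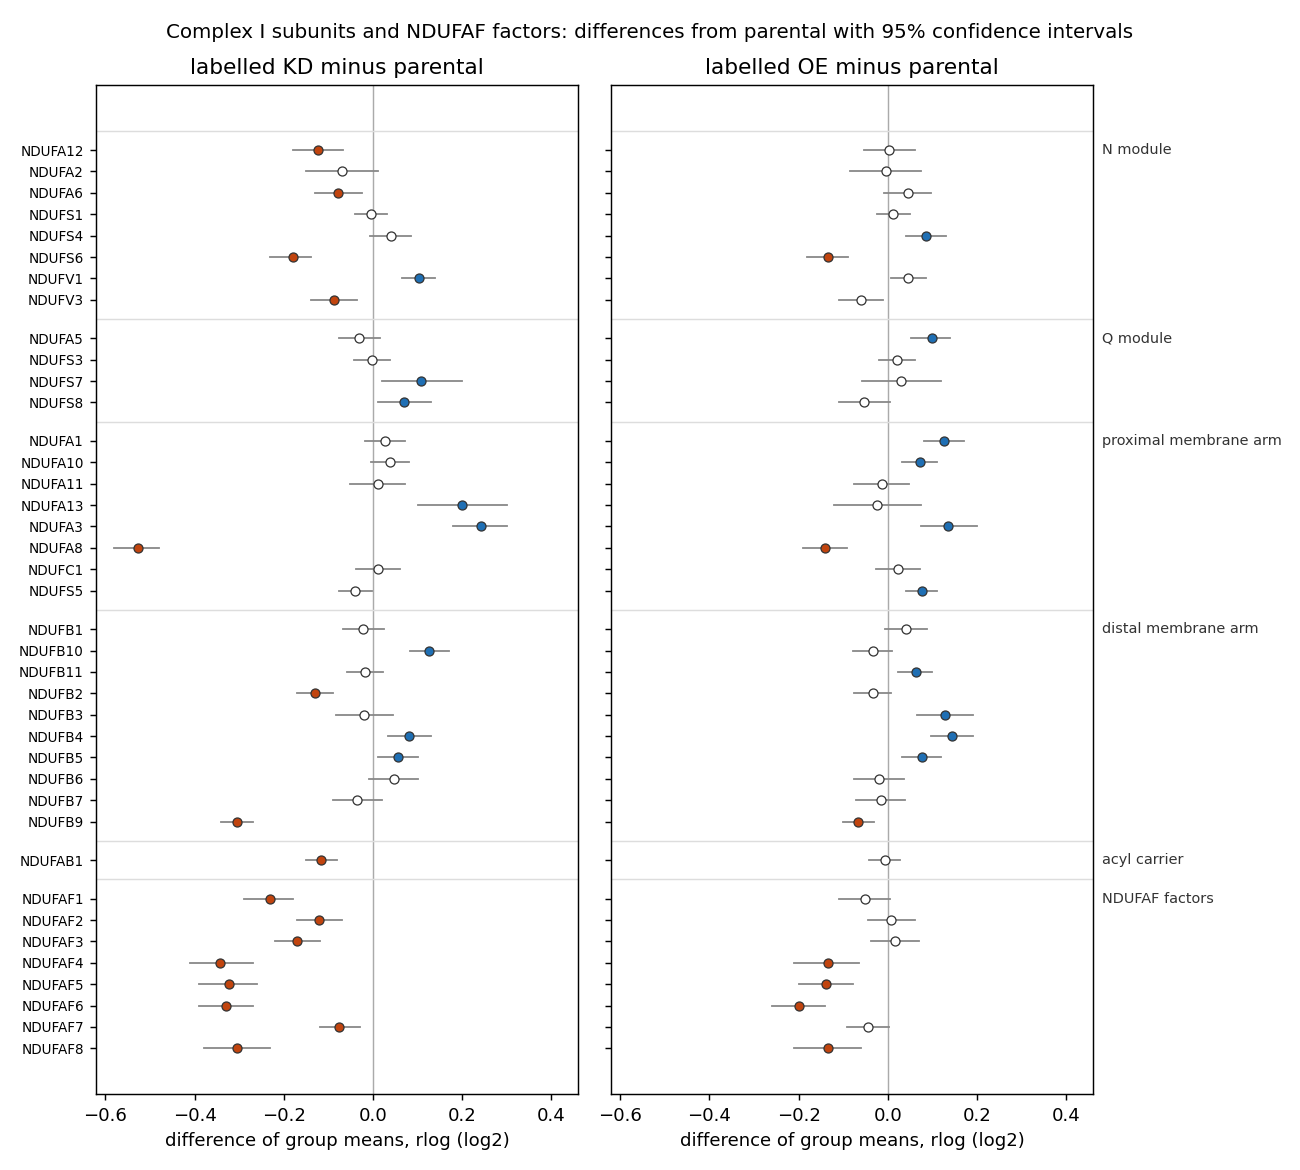
Differences of group means from parental in rlog value (log2), libraries labelled KD on the left and OE on the right, for subunits ordered by module (1 is not drawn) and 8 NDUFAF factors. Points are estimates and lines 95% confidence intervals; red points were called lower, blue points higher and open points not called. All 8 NDUFAF points lie left of 0 in KD, whereas subunits lie on both sides in both panels.

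Of the factors, NDUFAF4 (ENSG00000123545, chromosome 6, minus strand), which acts early in the building of the Q module, had rlog values of 9.35, 9.29 and 9.31 in the parental libraries, 9.05, 8.90 and 8.97 in KD and 9.21, 9.18 and 9.15 in OE. The 3 groups did not overlap, with KD lowest and OE between KD and parental. It fell by 0.34 in KD (standard error 0.034, adjusted p = 3.1e-10 from limma) and by 0.14 in OE (adjusted p = 0.0021 from limma), and OE was higher than KD by 0.21 (adjusted p = 6.1e-06 from limma).

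NDUFAF6 (ENSG00000156170, chromosome 8), a factor needed early for the mitochondrially encoded ND1, had values of 10.12, 10.11 and 10.06 in the parental libraries, 9.85, 9.72 and 9.72 in KD and 9.89, 9.92 and 9.88 in OE. All libraries of both engineered lines lay below all parental libraries, and the OE libraries lay above the KD libraries. The differences were -0.33 in KD (standard error 0.031, adjusted p = 8.6e-11 from limma) and -0.20 in OE (adjusted p = 4.6e-06 from limma), the latter being the largest decrease of any member called in OE.

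NDUFAF5 and NDUFAF8 work as partners, NDUFAF5 being the enzyme that hydroxylates an arginine of the subunit NDUFS7. NDUFAF5 (ENSG00000101247, chromosome 20, plus strand) had values of 9.39, 9.42 and 9.38 in the parental libraries, 9.10, 9.05 and 9.07 in KD and 9.27, 9.22 and 9.28 in OE. NDUFAF8 had 10.63, 10.82 and 10.71, then 10.41, 10.50 and 10.34, then 10.63, 10.56 and 10.57 in the same order. For NDUFAF5 the groups were apart with OE in the middle, while for NDUFAF8 an OE library lay at the level of the lowest parental one and all KD libraries were below both other groups.

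NDUFAF5 fell by 0.32 in KD (standard error 0.030, adjusted p = 7.3e-11 from limma) and NDUFAF8 by 0.31 (standard error 0.036, adjusted p = 9.8e-09 from limma). In OE the fall was 0.14 for NDUFAF5 (adjusted p = 0.00045 from limma) and 0.14 for NDUFAF8 (adjusted p = 0.0033 from limma). The OE call of NDUFAF5 was lost once the median of the neighbouring genes was removed (-0.02, adjusted p = 0.56 from limma). That of NDUFAF8 was lost in the same way (-0.08, adjusted p = 0.087 from limma), without parental replicate 2 and without a variance trend.

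NDUFAF1, which acts on the membrane arm together with ECSIT and ACAD9, had values of 10.38, 10.43 and 10.42 in the parental libraries and 10.21, 10.20 and 10.12 in KD, with no overlap. Its difference was -0.23 in KD (adjusted p = 7e-09 from limma) and -0.05 in OE (adjusted p = 0.16 from limma). NDUFAF2, a paralogue of the subunit NDUFA12 that holds its place during assembly, differed by -0.12 in KD (adjusted p = 0.00015 from limma) and by 0.01 in OE (adjusted p = 0.86 from limma). NDUFA12 itself differed by -0.12 in KD (adjusted p = 0.00028 from limma) and by 0.00 in OE (adjusted p = 0.95 from limma).

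NDUFAF3, the partner of NDUFAF4, had values of 10.31, 10.33 and 10.25 in the parental libraries, 10.14, 10.13 and 10.11 in KD and 10.31, 10.29 and 10.34 in OE. The KD libraries were below both other groups, which overlapped. The difference in KD was -0.17 (adjusted p = 1.2e-06 from limma), but the genes around it on chromosome 3 had a median difference of -0.27, and relative to them NDUFAF3 was higher by 0.10 (adjusted p = 0.00079 from limma). NDUFAF7, a mitochondrial protein methyltransferase, had the smallest difference in KD (-0.08, adjusted p = 0.0063 from limma), and the call was lost without KD replicate 2.

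**Figure D2:**
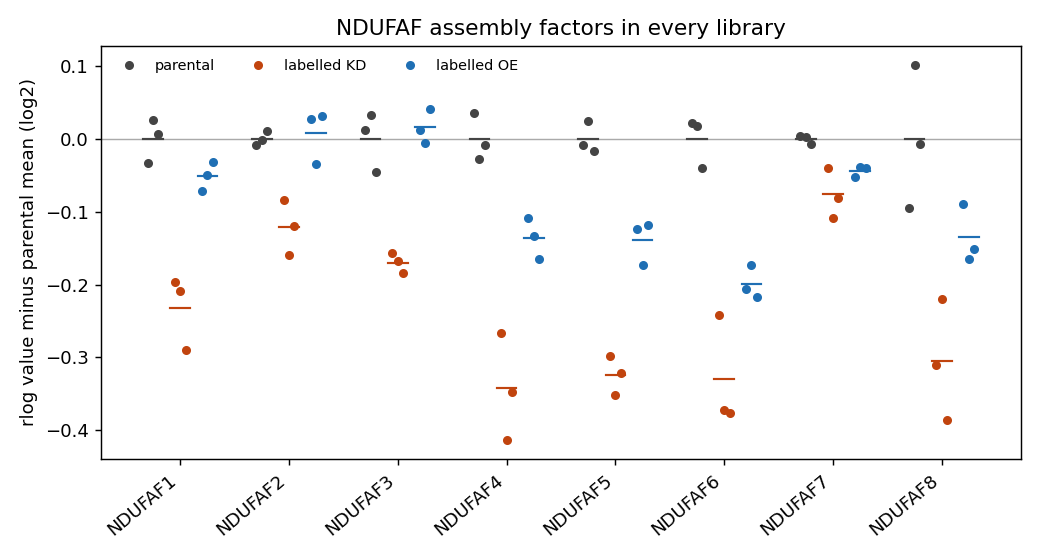
Rlog values of the 8 NDUFAF factors in each of the 9 libraries, given as the difference from the parental mean of the gene (log2); dots are libraries and bars group means of 3 libraries. For each factor the 3 KD libraries (red) lie below all 3 parental libraries (grey); the OE libraries (blue) lie between them for NDUFAF4, NDUFAF5 and NDUFAF6.

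Between the engineered lines themselves, 7 of the 8 factors were higher in OE than in KD, where 23.5% of all genes were called higher. In that comparison 0 factors were called lower, where 23.8% of all genes were. At an unadjusted p under 0.05 in limma 0 factors were lower too. The median of the factors was 0.18. NDUFAF7 (0.03, adjusted p = 0.27 from limma) was the one not called. Relative to the neighbouring genes NDUFAF3 was lower in OE than in KD by -0.09.

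To show what lies upstream of members that moved, the 250 bases before the RefSeq start of transcription are given. They come from the RefSeq promoter table (build GRCh38.p14), which holds 28 of the 32 subunits and 7 of the 8 factors. Of the genes with an entry there, the 2 NDUFAF factors with the largest fall in KD and the subunit with the largest increase in KD were taken. They are NDUFAF4 (chr6:96897892-96898141, minus strand), NDUFAF5 (chr20:13784778-13785027, plus strand) and NDUFA3 (chr19:54102605-54102854, plus strand), each written 5′ to 3′ on the strand of the gene. Both strands were searched for CGCNTGCG (recognized by NRF1), CCGGAAG (ETS factors such as GABPA), AAGATGGC (YY1), TCAAGGTCA (ERR receptors) and ACGTG (HIF), and matches are in capitals. Matches may overlap, as the HIF letters do on the 2 strands of CACGTG, and a gene with several counts once.
NDUFAF4: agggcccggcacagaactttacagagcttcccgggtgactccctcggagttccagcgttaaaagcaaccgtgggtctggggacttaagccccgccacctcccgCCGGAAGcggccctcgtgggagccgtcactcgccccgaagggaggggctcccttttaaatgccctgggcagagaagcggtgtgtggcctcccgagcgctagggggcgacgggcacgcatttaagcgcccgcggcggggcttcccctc
NDUFAF5: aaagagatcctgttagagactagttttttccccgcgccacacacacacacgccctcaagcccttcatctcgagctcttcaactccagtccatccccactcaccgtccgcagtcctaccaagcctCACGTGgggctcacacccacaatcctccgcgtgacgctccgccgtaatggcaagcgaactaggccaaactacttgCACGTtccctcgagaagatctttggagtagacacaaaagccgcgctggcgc
NDUFA3: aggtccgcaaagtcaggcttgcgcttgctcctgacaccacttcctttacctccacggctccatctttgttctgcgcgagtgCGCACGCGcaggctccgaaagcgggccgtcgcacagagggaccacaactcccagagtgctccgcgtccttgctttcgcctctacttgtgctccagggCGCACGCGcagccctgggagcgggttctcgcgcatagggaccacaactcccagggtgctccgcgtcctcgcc

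The NDUFA3 window holds the NRF1 letters at 2 places, that of NDUFAF4 the ETS letters and that of NDUFAF5 the HIF letters. In GENCODE 44 NDUFA3 starts at 54102728 and NDUFAF5 at 13785007, inside their windows, so the ends of these windows lie within the annotated genes. The later NRF1 place of NDUFA3 lies past that start. Of the 27305 genes with such windows, 10.5% hold the NRF1 letters in these 250 bases, as do 11 of the 28 subunits (39.3%) and 0 of the 7 factors. The ETS letters were found in 10.2% of all genes, 5 subunits and 2 factors (NDUFAF4 and NDUFAF8), and the HIF letters in 21.7%, 7 and 1. The letters of YY1 (1.64% of all genes) and ERR (0.388%) were found in none of the members. A match is a description of the sequence and not a measured binding site.

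The nuclear core subunits carry the flavin and the iron-sulfur clusters or line the quinone site. NDUFV1, which binds the flavin and NADH, was higher in KD by 0.10 (adjusted p = 2.4e-05 from limma), with all KD libraries (12.52, 12.51 and 12.56) above the parental ones (12.42, 12.41 and 12.45). Its OE difference of 0.05 was not called (adjusted p = 0.058 from limma), but it was called under several alternatives, such as quantile normalization and removal of the neighbours' median (0.08, adjusted p = 0.0003 from limma). NDUFS7 (0.11, adjusted p = 0.037 from limma) and NDUFS8 (0.07, adjusted p = 0.039 from limma) were called in KD with libraries that overlapped the parental ones. Both calls were lost without a variance trend, after median-centring, without parental replicate 1 or 2 and without KD replicate 3, and that of NDUFS7 also without KD replicate 2 and after quantile normalization. The differences of NDUFS1 and NDUFS3 were -0.01 and -0.0031 in KD and 0.01 and 0.02 in OE, with adjusted p values from limma of 0.84, 0.91, 0.65 and 0.49.

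NDUFS6, a zinc-binding subunit of the N module that is added late, had values of 11.83, 11.82 and 11.77 in the parental libraries, 11.65, 11.59 and 11.64 in KD and 11.66, 11.64 and 11.72 in OE. Both engineered lines lay below parental and overlapped each other. It fell by 0.18 in KD (adjusted p = 2.1e-08 from limma) and by 0.13 in OE (adjusted p = 1e-05 from limma). NDUFA12, NDUFA6 and NDUFV3 of the N module were also lower in KD, by differences of -0.12, -0.08 and -0.09.

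The NDUFA6 call was lost without KD replicate 2 and the NDUFV3 call after removal of the neighbours' median (0.0023, adjusted p = 0.94 from limma). NDUFA6-DT, which starts beside NDUFA6 on the other strand, differed by -0.16 in KD (adjusted p = 0.0018 from limma). The read-through NDUFC2-KCTD14 had a mean rlog of 1.25, near the floor, with values from 1.21 to 1.28 over the libraries. It was not called in any comparison, with differences of 0.01 in OE against parental and 0.02 against KD. Only with the neighbours' median removed, itself -0.037 in OE, was it called in OE against parental (0.05, adjusted p = 0.044 from limma). The same held against KD (0.06, adjusted p = 0.0077 from limma).

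In the proximal membrane arm, NDUFA8 (ENSG00000119421, chromosome 9 from 122144058 to 122159779), a subunit on the intermembrane side, had values of 10.87, 10.83 and 10.82 in the parental libraries, 10.32, 10.33 and 10.29 in KD and 10.71, 10.68 and 10.71 in OE. The groups were apart, with KD far below OE and parental. Its difference of -0.53 in KD (standard error 0.024, adjusted p = 8.7e-19 from limma) was the largest of any member, and it was -0.14 in OE (adjusted p = 1.4e-05 from limma).

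NDUFA3 (ENSG00000170906, chromosome 19) showed the largest increase in KD, from 9.32, 9.34 and 9.37 in the parental libraries to 9.59, 9.56 and 9.61, with 9.53, 9.46 and 9.45 in OE. Every library of both lines was above the parental libraries. The increase was 0.24 in KD (standard error 0.030, adjusted p = 2.5e-08 from limma) and 0.13 in OE (adjusted p = 0.00048 from limma). NDUFA13, known also as GRIM19, was higher in KD by 0.20 (adjusted p = 0.00072 from limma) and differed by -0.02 in OE (adjusted p = 0.76 from limma), within the uncertainty of its shared exons.

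NDUFB9 (ENSG00000147684, chromosome 8), an LYR-motif protein of the distal membrane arm, had values of 12.64, 12.64 and 12.58 in the parental libraries, 12.32, 12.30 and 12.32 in KD and 12.56, 12.55 and 12.55 in OE. It was lowest in KD, with no overlap between the groups. The differences were -0.31 in KD (standard error 0.017, adjusted p = 3.8e-16 from limma) and -0.07 in OE (adjusted p = 0.0031 from limma), the OE call being lost after quantile normalization and after removal of the neighbours' median.

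NDUFB10 moved the other way in KD, with a difference of 0.13 (adjusted p = 6.7e-06 from limma), and -0.03 in OE (adjusted p = 0.24 from limma). NDUFB2, 24.3% of whose canonical transcript is shared with other genes, fell by 0.13 in KD (adjusted p = 1.9e-06 from limma). NDUFAB1, the acyl carrier protein found in both arms and also used in iron-sulfur cluster assembly, fell by 0.12 in KD (adjusted p = 7.5e-07 from limma), with 12.07, 12.04 and 12.06 against 12.18, 12.18 and 12.17 in the parental libraries, and differed by -0.01 in OE (adjusted p = 0.80 from limma).

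The increases in OE were led by NDUFB4 of the distal arm, which has 12 annotated pseudogenes. Its values were 11.16, 11.19 and 11.14 in the parental libraries and 11.29, 11.29 and 11.34 in OE, with no overlap. The difference was 0.14 (standard error 0.023, adjusted p = 6.3e-06 from limma), and 0.08 in KD (adjusted p = 0.0033 from limma). After NDUFA3, NDUFB3 (0.13, adjusted p = 0.0012), NDUFA1 (0.13, adjusted p = 2.4e-05) and NDUFA5 (0.10, adjusted p = 0.00067 from limma for these 3) followed, none of them called in KD.

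NDUFA1 lies on chromosome X among genes whose median was 0.098 in OE, and relative to them its difference was 0.03 (adjusted p = 0.36 from limma). NDUFA5 has 12 annotated pseudogenes. NDUFB5 was higher in KD by 0.06 (adjusted p = 0.029 from limma) and in OE by 0.08 (adjusted p = 0.0053 from limma). Its KD call was lost without a variance trend, after median-centring, after removal of the neighbours' median and without parental replicate 1, parental replicate 2 or KD replicate 3. Its OE call was lost after removal of the neighbours' median and without OE replicate 1.

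Compared directly, 13 of 32 subunits were higher in OE than in KD (40.6%, beside 23.5% of all genes) and 7 lower (21.9%, beside 23.8%), with a median of 0.041. NDUFA8 (0.39, adjusted p = 3.9e-15) and NDUFB9 (0.24, adjusted p = 2.5e-13 from limma for both) led the higher ones. NDUFA13 (-0.22, adjusted p = 0.00024), NDUFB10 (-0.16, adjusted p = 1.5e-07), and NDUFS8 (-0.12, adjusted p = 0.00051, from limma for all 3) led the lower ones.

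The 8 factors lie on 8 chromosomes and the subunits on 16, and several of the differences were shared with genes nearby. For each gene the median difference of the other genes in its 20-Mb block of the chromosome was taken, counting neighbours whose mean rlog was 5 or more. In KD it was -0.32 over 208 genes around NDUFA8, -0.23 over 41 genes around NDUFB9, -0.27 over 183 genes around NDUFAF3, -0.096 over 88 genes around NDUFAF5 and -0.089 over 55 genes around NDUFV3. Around NDUFC1 on chromosome 4 it was 0.15 over 52 genes, while NDUFC1 itself differed by 0.01 (adjusted p = 0.74 from limma) and by -0.14 relative to these neighbours (adjusted p = 9.7e-06 from limma).

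Relative to their neighbours NDUFA8 and NDUFB9 were still lower in KD, by differences of -0.20 (adjusted p = 7.5e-09 from limma) and -0.07 (adjusted p = 0.00089 from limma), and their OE calls were lost (-0.05 and -0.02, adjusted p = 0.096 and 0.51 from limma). Of the factors, NDUFAF4 (0.058), NDUFAF6 (0.034), NDUFAF8 (-0.029), NDUFAF1 (-0.011), NDUFAF2 (0.010) and NDUFAF7 (0.021) had neighbours with medians near 0 in KD. With neighbours' medians removed 7 of the 8 factors were called lower in KD and NDUFAF3 was called higher, and 2 were called lower in OE. Of all genes, 6722 were then called lower and 6487 higher in KD, and 4010 lower in OE. Whether the copy number of these stretches differs between the lines was not tested.

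**Figure D3:**
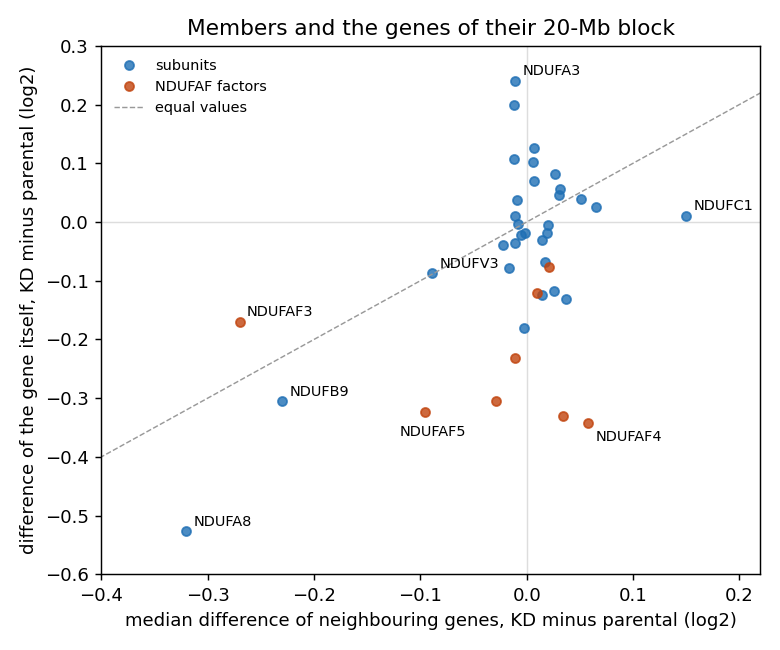
Difference of each member between KD and parental (vertical axis, log2) against the median difference of the other genes in its 20-Mb block (horizontal axis, log2); blue dots are subunits (1 is not drawn), red dots 8 NDUFAF factors, and the dashed line marks equal values. NDUFA8, NDUFB9 and NDUFAF3 lie at the left with blocks at -0.32, -0.23 and -0.27, while most NDUFAF factors are low with blocks near 0.

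NDUFA4 and NDUFA4L2 bear the name of the family but are given apart, because NDUFA4 is a subunit of cytochrome c oxidase and NDUFA4L2 its paralogue that hypoxia-inducible factors raise. NDUFA4 had values of 12.34, 12.36 and 12.30 in the parental libraries, 12.38, 12.38 and 12.35 in KD and 12.43, 12.41 and 12.40 in OE. The OE libraries were above both other groups, and the difference from parental was 0.08 in OE (adjusted p = 0.00039 from limma) and 0.04 in KD (adjusted p = 0.084 from limma). NDUFA4L2 had values of 6.87, 6.94 and 6.84 in the parental libraries, 6.85, 6.79 and 6.87 in KD and 6.92, 6.95 and 6.89 in OE.

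The NDUFA4L2 libraries of each line overlapped parental, with differences of -0.04 in KD and 0.04 in OE (adjusted p = 0.42 and 0.57 from limma). Of 12 other genes that hypoxia-inducible factors raise, 8 were called higher and 2 lower in KD (66.7% and 16.7%, beside 26.9% of all genes each way), and 11 were called higher in OE (91.7%, beside 16.9%). CA9, a carbonic anhydrase, was higher by 1.84 in KD (adjusted p = 9.9e-28 from limma) and by 1.66 in OE (adjusted p = 1.3e-25 from limma).

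Complex I is also assembled by proteins that do not bear the NDUFAF name. Of 14 such factors 2 were called higher (14.3%) and 4 lower (28.6%) in KD, beside 26.9% of all genes each way, with a median of -0.0025. In OE 0 were called higher and 2 lower (14.3%), beside 16.9% and 18.0% of all genes, with a median of -0.012. At an unadjusted p under 0.05 in limma the OE counts were 1 higher and 4 lower. TMEM70 had a difference of -0.20 in KD (adjusted p = 2.5e-07 from limma) and -0.13 in OE (adjusted p = 0.00034 from limma), and FOXRED1 one of -0.16 in KD (adjusted p = 4.1e-08 from limma). The list of other factors had 7 positive and 7 negative differences in KD, where the NDUFAF list had 8 negative ones.

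The iron-sulfur clusters that complex I carries are made by a separate machinery in the matrix. Of its 12 genes with values 7 were lower (58.3%) and 1 higher (8.33%) in KD, beside 26.9% of all genes each way, with a median of -0.18. In OE 6 of the 12 were lower, beside 18.0% of all genes, and 0 higher, beside 16.9%, with a median of -0.057. At an unadjusted p under 0.05 in limma the OE counts were 7 lower and 1 higher. ISCA1 (-0.55, adjusted p = 8e-19) and NFS1, the cysteine desulfurase (-0.33, adjusted p = 1.3e-12 from limma for both), had the largest differences in KD. ISCA1 lies on chromosome 9, and the median of its neighbours was -0.3 in KD, while that around NFS1 on chromosome 20 was -0.29.

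The subunits of complex I encoded by the mitochondrial genome were higher for 4 of 7 genes and lower for 3 in KD (57.1% and 42.9%, beside 26.9% of all genes each way), with MT-ND4 (0.30, adjusted p = 6.1e-23 from limma) and MT-ND4L (0.24, adjusted p = 1.1e-15 from limma) at the top. The 3 lower ones were MT-ND2 (-0.19, adjusted p = 6.9e-15), MT-ND1 (-0.16, adjusted p = 3.4e-13) and MT-ND3 (-0.1, adjusted p = 1.3e-07, from limma for all 3). In OE 5 were higher (71.4%, beside 16.9%), led by MT-ND6 (0.23, adjusted p = 2.4e-16 from limma) and MT-ND5 (0.17, adjusted p = 7.6e-16 from limma). In OE 0 were called lower, beside 18.0% of all genes, and 0 were lower at an unadjusted p under 0.05 in limma. Their median was 0.10 in KD and 0.13 in OE, beside -0.0041 and 0.021 for the nuclear subunits.

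Nuclear genes of the other complexes are given as a frame for complex I. In KD, where 26.9% of all genes were called each way, complex III had 1 of 8 subunits higher (12.5%) and 5 lower (62.5%), complex IV 6 of 11 higher (54.5%) and 1 lower (9.09%), and complex V 3 of 13 higher and 3 lower (23.1% each). UQCRC1 (-0.32, adjusted p = 3.7e-17 from limma) led complex III, and it lies on chromosome 3 among genes with a median of -0.27. In OE 3, 7 and 7 subunits of complexes III, IV and V were higher (37.5%, 63.6% and 53.8%, beside 16.9% of all genes). In the same order 0, 0 and 1 were called lower in OE, beside 18.0% of all genes. At an unadjusted p under 0.05 in limma 0, 1 and 1 were lower. The medians in OE were 0.029, 0.087 and 0.064 in that order, beside 0.021 for the complex I subunits. The complex II list of 5 genes with values mixes the subunits SDHB and SDHC with assembly factors, and the gene called higher in KD was the factor SDHAF1 (0.10, adjusted p = 0.017 from limma), the one called lower SDHB (-0.07, adjusted p = 0.00086 from limma).

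**Figure D4:**
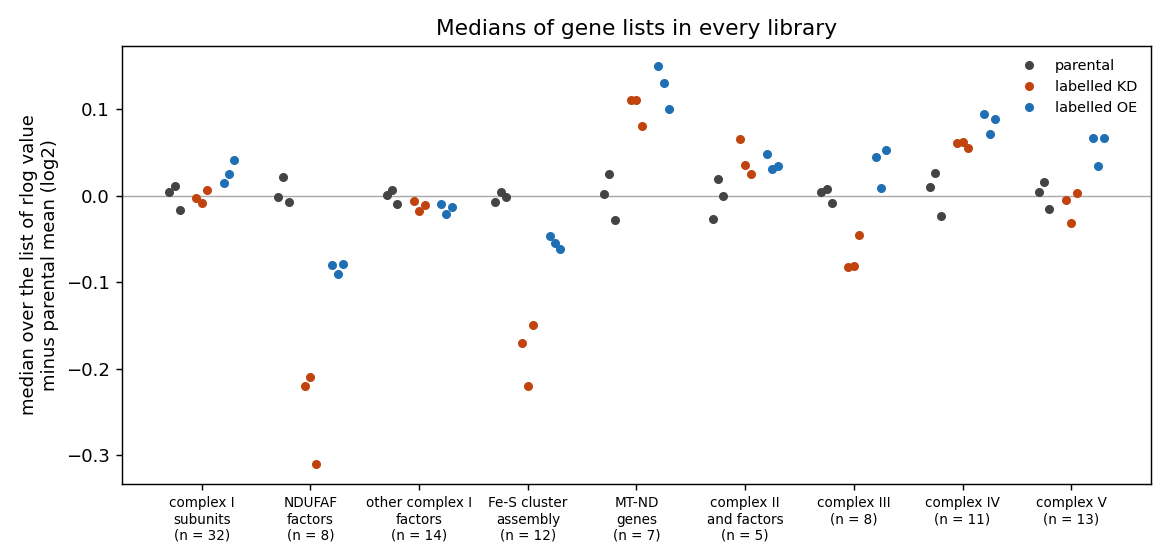
Median over each gene list of the rlog value minus the parental mean of the gene (log2) in each of the 9 libraries; dots are libraries, in grey for parental, red for KD and blue for OE, and n is the number of genes with values. The NDUFAF list lies between -0.31 and -0.21 in the KD libraries and the list of complex I subunits between -0.0081 and 0.0065.

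Regulators of nuclear respiratory genes were measured too. Of 9 such genes 2 were called higher (22.2%) and 4 lower (44.4%) in KD, beside 26.9% of all genes each way, and 1 higher (11.1%) and 3 lower (33.3%) in OE, beside 16.9% and 18.0%. PPARGC1A, a coactivator of mitochondrial biogenesis, was higher in KD by 0.62 (adjusted p = 1.3e-14 from limma) and its relative PPARGC1B lower, with a difference of -0.52 (adjusted p = 2.2e-15 from limma). In OE the differences of PPARGC1B and PPRC1 were -0.27 (adjusted p = 2.5e-08 from limma) and -0.23 (adjusted p = 1.8e-12 from limma). NRF1, named here after its values were seen because of the promoter motif, differed by -0.02 in KD and 0.02 in OE (adjusted p = 0.63 and 0.69 from limma).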

How the data were processed

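RNA was sequenced in 9 libraries, 3 per group. Per the submitters' processing notes and the methods, the authors used cutadapt for trimming, HISAT2 for mapping (build GRCh38) and featureCounts of Subread for gene counts, dropped genes with few reads and deposited regularized log2 values made with DESeq2; versions, annotation and strand setting are not given in the sources used here. Another 3 columns of the table held no values and were not used.

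Symbols came from the Ensembl IDs (22195 of 22290 matched), positions and lengths from GENCODE 44. Group means were compared with limma 3.58.1 (R 4.3.3) over all 9 libraries, letting the prior variance follow the level, with Benjamini-Hochberg adjustment over 22290 genes. The code was tested on simulated data. Summaries used Python 3.11.15.

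Genes named, some members being left unnamed, are TRAP1, nuclear core subunits, NDUFA4, NDUFA4L2, every NDUFAF, the 5 called members with the largest increase and the 5 with the largest decrease per comparison, and up to 2 called genes per other list; others are named where a count or a neighbour calls for it. The members, lists and alternatives were chosen with earlier results of these data known. Alternatives were no variance trend, 2 groups only, a mean rlog of at least 5, median-centring, quantile normalization, removal of the median of 20-Mb blocks (with at least 10 genes), a replicate block, a difference over 0.5 and each library left out.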

Additional observations from a re-analysis of the deposited data

How the results depend on the processing

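All 8 NDUFAF factors stayed below parental in KD under every alternative but removal of block medians. There, 1 factor was called higher and 7 lower in KD, 2 lower in OE, and 1 lower in OE than in KD, while the median of the factors was -0.22 in KD and -0.056 in OE. Over all genes that setting called 6487 higher and 6722 lower in KD, 4010 lower in OE and 5710 lower in OE than in KD. NDUFAF3 turned to 0.10 in KD against parental and to -0.092 in OE against KD, by construction, since its neighbours had fallen further. In the same setting 1 subunit was called lower in OE. The median of the subunits, close to 0 in KD, was -0.017 after removal of block medians, -0.015 after median-centring and 0.0086 after quantile normalization, so it has no direction. In OE it was 0.003 after median-centring and 0.032 after quantile normalization, and between OE and KD 0.057 after removal of block medians. The cause of these shifts was not tested.

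With a difference over 0.5 also required, 1 subunit (NDUFA8, lower in KD) was called and 0 other subunits or factors in any comparison. Of all genes, 604 were then higher and 506 lower in KD, 129 and 71 in OE, and 357 and 436 between OE and KD. This threshold is severe on a shrunken scale.

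Leaving out 1 library at a time gave medians of the factors from -0.28 to -0.23 in KD and from 0.14 to 0.18 between OE and KD, and of the subunits from -0.0069 to 0.014 in KD. Between 7 and 8 factors were lower in KD, and 3 to 4 in OE (6 after median-centring). Of all genes, 5505 to 6026 were lower in KD and 3547 to 4005 in OE with a library left out. The subunits higher in KD went from 9 to 6 without a variance trend, after median-centring, and without parental replicate 1, parental replicate 2 or KD replicate 3. Over all genes the number higher in KD went from 5985 to 5776 without a variance trend and to 5455 after median-centring. It was 5568 to 6004 with a library left out. For the 26 genes followed singly, 1196 values kept direction and call, 35 lost the call, 15 gained one and 2 reversed. Of the counts of the other lists, 19 of 90 moved clearly after removal of block medians and 8 of 90 with a mean rlog of at least 5. Among the printed ones, block removal took the mitochondrially encoded genes in OE from 5 to 2 higher and from 0 to 3 lower, the neighbours there being other genes of the mitochondrial genome. It also took the other complex I factors in KD from 2 to 0 higher, complex IV in KD from 1 to 2 lower and complex V from 3 to 5 lower in KD and from 1 to 0 in OE. When only genes at that level were kept, the other complex I factors in OE went from 0 to 1 higher and from 2 to 4 lower, and the iron-sulfur genes in OE from 0 to 1 higher.

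Replicate numbers are shared between groups. Deviations of same-numbered libraries correlated with r from -0.071 to 0.14. Each KD library correlated best with the OE library of its own number, at most a hint, and no parental library correlated best with its own number. With 3 libraries per group these values cannot decide whether the numbers pair the libraries. With the replicate number as a block 8 factors were lower in KD and 4 in OE, beside 6023 and 4064 of all 22290 genes. In that fit 9 subunits were higher in KD and 12 in OE, beside 5992 and 3790 of all genes. The values do not keep the depth of each library, and what small differences at low levels can show is limited.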
